A study of Mus musculus with 2 samples.

Results

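Heat-shock proteins are molecular chaperones that keep other proteins folded, and 10 of their genes were followed in RNA from mouse pancreatic islets, the clusters of hormone-secreting cells that hold the insulin-producing β-cells. The genes were chosen by symbol (Hspa1a, Hspa1b, Hspb1, Hspa8, Hsp90aa1, Hsp90ab1, Dnajb1, Hsph1, Hspe1 and Hspd1). All 10 were found among the 17245 genes of the deposited table, and all 10 reached 1 FPKM (fragments or reads divided by gene length and library size) in at least 1 library, as did 12428 genes in all. The study set islets of wild-type (WT) mice beside islets of mice with a β-cell knockout (KO) of cGAS, an enzyme that senses DNA in the cytosol, with 1 library per genotype. There was therefore no replicate, so no SD and no test, and every difference is one between these libraries. Collagenase was used to free the islets, which were then picked under a microscope and placed in culture medium with serum before RNA extraction. The sources used here do not give the age, sex or strain of the mice, how many mice went into a library, which exon was deleted or what drove the deletion. Islets also contain cells other than the β-cells named by the label.

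The cytosolic HSP70 proteins bind exposed stretches of unfolded chains and release them in a cycle driven by ATP. J-domain proteins such as the product of Dnajb1 deliver clients and start ATP hydrolysis, and nucleotide exchange factors such as the product of Hsph1 reset the cycle. HSP90 proteins act later, on clients such as kinases and steroid receptors. Some of these genes run at a high level in unstressed cells (Hspa8, Hsp90ab1), and others are switched on by heat, misfolded protein or handling of tissue through the transcription factor HSF1 (Hspa1a, Hspa1b). HSF1 binds repeated GAA units in the promoters of its targets.

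The library totals worked out from the deposited values were 14537660 reads for KO and 19097001 for WT. Insulin and the other islet hormones made up most of the summed FPKM in both libraries (479520 of 755285 in KO and 431615 of 682182 in WT for the 7 hormone genes of the list). Cgas itself was at 0.521 FPKM in KO and 0.205 FPKM in WT, on at least 31 and 16 reads. It was not lower in KO, so KO stands here for the label of that library. The value of a whole gene cannot separate deleted from kept exons, or β-cells from other cells.

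Hspa1a, Hspa1b and Hspb1 were several-fold higher in the KO-labelled library, while the other 7 genes lay within 2-fold. All 3 are known as stress-inducible, but so are genes that were lower as deposited, among them Dnajb1 and Hsp90aa1. The split was therefore not one of inducible against constitutive genes. The count was 3 of 10 above WT by 2-fold or more and 0 of 10 below it by as much on the scale log2((KO + 1)/(WT + 1)), called the log2 difference here. The same limit was passed upward by 6.98% and downward by 3.88% of the 12428 expressed genes. Of the 7 genes within 2-fold, Hspe1 was the single one that was higher and the other 6 were lower. The median log2 difference of the 10 genes was -0.17, against 0.077 over all expressed genes, whose quartiles were -0.35 and 0.51. The set was thus split, with 3 genes far above WT and 6 modestly below it.

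**Figure D1:**
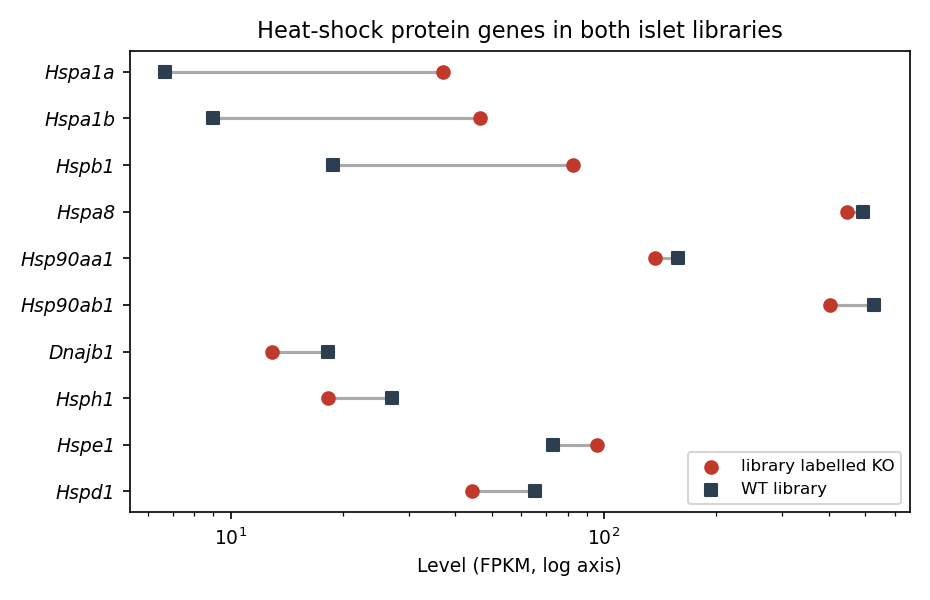
Level of each heat-shock protein gene in FPKM (log axis) in the KO-labelled library (circles) and the WT library (squares), 1 library each, joined by a line per gene. Hspa1a, Hspa1b and Hspb1 lie far to the right in the KO-labelled library (37.1, 46.5 and 82.6 FPKM against 6.68, 8.98 and 18.8), and the symbols of Hspa8 and Hsp90aa1 lie close together.

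Hspa1a and Hspa1b encode nearly the same stress-inducible HSP70. Hspa1a was at 37.1 FPKM in the KO-labelled library and 6.68 FPKM in WT, a ratio of 5.55 (exact 95% counting interval 4.94 to 6.25) on at least 1509 and 357 reads. For Hspa1b the levels were 46.5 FPKM in KO against 8.98 FPKM in WT, with a ratio of 5.18 (4.69 to 5.74) on at least 1901 and 482 reads. Their log2 differences were 2.31 and 2.25, at rank 7 and rank 9 from the top of the 12428 expressed genes. These intervals cover counting error alone, since reads copied by PCR are not separate molecules and no second library shows how islet preparations vary.

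These genes are intronless neighbours on chromosome 17. In RefSeq on GRCm38.p6 Hspa1a spans chr17:34969359-34972156 and Hspa1b chr17:34956429-34959238, both on the minus strand and 10120 bases apart. The lengths that turn their FPKM values into whole reads were 2798 and 2810 bases, equal to those RefSeq spans. Their coding sequences of 1923 and 1926 bases aligned with 1915 identical bases, 8 mismatches and 3 gap bases (99.4% identity). In the GENCODE transcript of Hspa1a 58.8% of all 50-base stretches also occur in Hspa1b, and 62.3% of those of Hspa1b occur in Hspa1a. The sources used here do not say how such reads were assigned. If they were dropped or counted for both genes, the sum of both is affected as well as each value. The sum was 83.6 FPKM in the KO-labelled library and 15.7 FPKM in WT, a ratio of 5.34. The level of Hspa1a relative to Hspa1b was 0.797 in KO and 0.744 in WT, and the interval of the change in this ratio (0.920 to 1.25) included 1. That interval treats the reads of both genes as separate. Reads that fit both genes can hold the ratio steady, so it does not show that each gene differed alike.

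The likeness of Hspa1a and Hspa1b extends into their promoters, which are shown because both genes were higher together in the KO-labelled library. The 150 bases before each RefSeq start differ at 1 base, and the 250 bases before it at 3. Hspb1, on another chromosome, is the third sequence. Capitals mark a heat-shock element of 2 GAA units facing in opposite directions, searched as GAANNTTC or TTCNNGAA. Each of these words is its own reverse complement, so a match stands on both strands.
Hspa1a (chr17:34972157-34972306, minus strand): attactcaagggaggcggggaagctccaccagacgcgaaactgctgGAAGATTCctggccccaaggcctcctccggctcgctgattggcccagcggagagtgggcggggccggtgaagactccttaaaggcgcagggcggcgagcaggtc
Hspa1b (chr17:34959239-34959388, minus strand): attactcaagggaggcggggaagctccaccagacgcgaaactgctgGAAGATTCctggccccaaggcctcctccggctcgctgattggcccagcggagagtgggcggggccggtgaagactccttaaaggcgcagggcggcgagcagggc
Hspb1 (chr5:135887769-135887918, plus strand): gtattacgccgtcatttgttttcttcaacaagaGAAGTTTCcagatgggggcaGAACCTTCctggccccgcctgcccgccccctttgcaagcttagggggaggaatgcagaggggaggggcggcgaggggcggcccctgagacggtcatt
Hspa1a and Hspa1b have the element 104 bases before the start, and Hspb1 has elements 117 and 97 bases before it. The sequences are from RefSeq, build GRCm38.p6.

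Hspb1 encodes the small heat-shock protein HSP25, the mouse counterpart of human HSP27, which holds unfolded proteins without using ATP and binds actin. It was at 82.6 FPKM in the KO-labelled library and 18.8 FPKM in WT, a ratio of 4.38 (3.87 to 4.98) on at least 1084 and 325 reads. The log2 difference of 2.07 stood at rank 17 of the expressed genes. Hspb1 lies on chromosome 5 (chr5:135887919-135889563), apart from Hspa1a and Hspa1b. Of its transcript 51.6% of the 50-base stretches also occur in the pseudogene Hsp25-ps1.

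Hspa8 encodes HSC70, the constitutive cytosolic HSP70 and the most abundant of the 10 genes in the KO-labelled library. It was at 447 FPKM there and 495 FPKM in WT. WT was 1.11-fold higher (1.06 to 1.16), a log2 difference of -0.15. The ranks of Hspa8 by level were 66 of 17245 genes in KO and 35 in WT. In Hspa8 73.2% of 50-base stretches recur in other annotated genes, mostly the pseudogene Gm15459, so this value is less certain than its read number implies. The FPKM of Hspa1a, Hspa1b and Hspa8 together were 530 in KO and 511 in WT, a ratio of 1.04. As a share of the FPKM of all genes they were 0.0702% in KO and 0.0748% in WT, so the direction depends on the scaling. Hspa1a and Hspa1b made up 15.8% of the sum of these HSP70 genes in the KO-labelled library and 3.07% in WT. FPKM values are divided by gene length, so levels of different genes can be set side by side. Relative to Hspa8 the summed level of Hspa1a and Hspa1b was 0.187 in KO and 0.0317 in WT, a 5.92-fold change (counting interval 5.42 to 6.46) that does not move with the scaling of either library.

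Both partners of HSP70 in the set were lower in the KO-labelled library, opposite to the inducible HSP70 genes. Dnajb1, the stress-induced J-domain protein HSP40, was at 12.9 FPKM in the KO-labelled library and 18.3 FPKM in WT. WT was 1.41-fold higher (1.28 to 1.56), on at least 607 and 1125 reads. Hsph1, the large exchange factor HSP105/110, was at 18.2 and 27.1 FPKM, 1.49-fold higher in WT (1.40 to 1.58), on at least 1697 and 3316 reads. The log2 differences were -0.47 and -0.55. Relative to Hspa8, Dnajb1 was at 0.0290 in KO and 0.0369 in WT, and Hsph1 at 0.0408 and 0.0547. Almost none of the 50-base stretches of these transcripts recur in other genes (0.407% for Dnajb1 and 0 of 3753 for Hsph1), so shared sequence touches these values least in the set. Dnajb1 lies at chr8:83608175-83612653 and Hsph1 at chr5:149616843-149636498.

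Both cytosolic HSP90 genes were lower in the KO-labelled library. Hsp90ab1, the constitutive HSP90β, was at 403 FPKM in KO and 530 FPKM in WT, 1.31-fold higher in WT (1.29 to 1.34). Its smallest fitting reads, 14688 and 25360, were the most of the set and gave the narrowest interval. True reads of other genes, such as Hspa8, can be a multiple of their smallest fitting reads, so this order is not certain. Hsp90aa1, the more stress-responsive HSP90α, was at 137 and 158 FPKM, 1.15-fold higher in WT (1.11 to 1.19). The sum of both was 540 FPKM in KO and 687 FPKM in WT. The level of Hsp90aa1 relative to Hsp90ab1 was 0.340 in KO and 0.298 in WT, a 1.14-fold change (1.10 to 1.19). The shift between the HSP90 genes had the same sign as that between the HSP70 genes and was smaller. In Hsp90aa1 58.5% of 50-base stretches recur in other genes, mostly the pseudogene Gm12346, and in Hsp90ab1 4.49%.

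**Figure D2:**
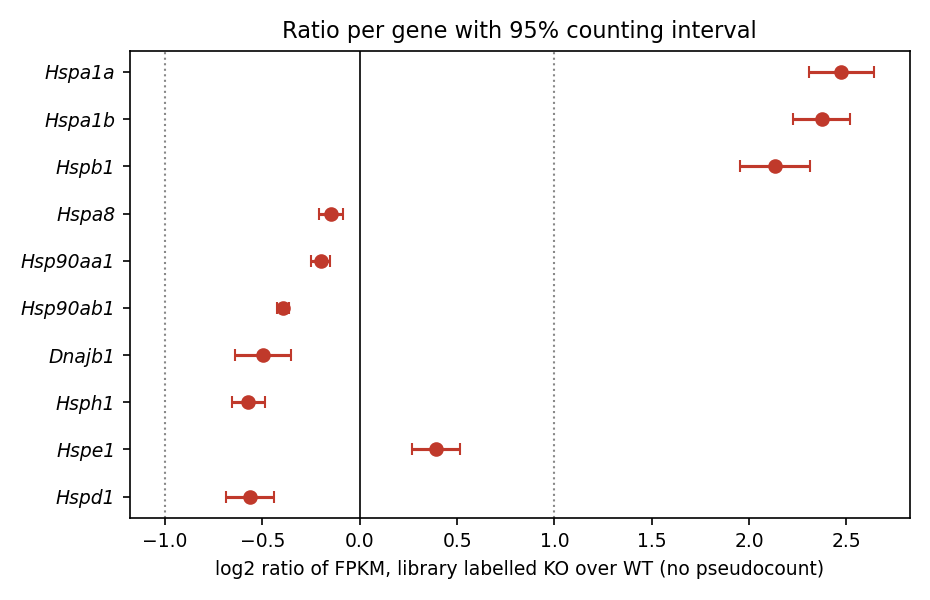
log2 ratio of FPKM without a pseudocount, KO-labelled library over WT, for each gene, with bars for the exact 95% counting interval from the recovered reads and dotted lines at a 2-fold difference. Hspa1a, Hspa1b and Hspb1 stand beyond the upper line, Hspe1 is above 0, and the other 6 genes are below 0 and within 2-fold.

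Hspd1 and Hspe1 encode HSP60 and HSP10, the barrel and the lid of the mitochondrial chaperonin, and they differed in opposite directions in the deposited values. Hspd1 was at 44.3 FPKM in the KO-labelled library and 65.4 FPKM in WT, 1.48-fold higher in WT (1.36 to 1.61), on at least 833 and 1617 reads. Hspe1 was at 96.0 FPKM in KO and 73.2 FPKM in WT, a ratio of 1.31 (1.21 to 1.43), on at least 1072 and 1073 reads. The level of Hspe1 relative to Hspd1 was 2.17 in KO and 1.12 in WT, a 1.94-fold change (1.72 to 2.18). With the trend on GC content and length removed both genes were below WT (-0.17 for Hspe1 and -0.47 for Hspd1 on the log2 scale), and the change in their ratio was 1.23-fold. The genes stand head to head on chromosome 1 (Hspd1 at chr1:55077833-55088243 and Hspe1 at chr1:55088148-55091317), and a RefSeq start of Hspd1 lies 216 bases from that of Hspe1. From its other start Hspd1 overlaps Hspe1 by 96 bases. Reads in the overlap cannot be assigned without strand information, and the sources used here give none. Parts of both transcripts also recur in other annotated genes, 36.1% of the 50-base stretches of Hspe1 and 44.8% of those of Hspd1.

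Between the starts of Hspe1 and Hspd1 lies a run of overlapping heat-shock elements, shown because both genes face it while their deposited levels differed in opposite directions. The stretch is on the strand of Hspe1, with the same capitals as above.
Hspe1 (chr1:55088053-55088082, plus strand): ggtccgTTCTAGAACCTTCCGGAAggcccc
Hsph1 (chr5:149636351-149636380, minus strand): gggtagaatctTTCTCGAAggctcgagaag
The run begins 89 bases before the start of Hspe1 and 144 bases before the nearer start of Hspd1. It holds overlapping matches of a 3-unit element, which is the 2-unit element followed, after any 2 bases, by a further unit in the alternate direction, searched on both strands. Hsph1, shown for comparison as a gene that was lower, has 2 tabled starts, both inside its RefSeq span. The printed 2-unit element lies 33 bases before the first of them, and a 3-unit match lies after that start.

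The tabled window ran from 250 bases before to 50 after each start. Windows were found for 7 of the 10 genes, and Hspa8, Hsp90aa1 and Hsp90ab1 had none in the table. The 2-unit element was in at least 1 window of 6 of these 7 genes, all but Dnajb1, against 17.0% of 27025 tabled genes. The 3-unit element was in 3 of the 7 genes (Hspd1, Hspe1 and Hsph1), against 0.662% of tabled genes. The 3 genes beyond 2-fold had the 2-unit but not the 3-unit form in these windows. The 3 genes with the 3-unit form lay within 2-fold, with Hspd1 and Hsph1 lower and Hspe1 higher. The search took exact units at fixed spacing, so elements with a gap or an imperfect unit were missed. A match of letters does not show that a factor binds there, and the absence of a match describes the window alone.

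**Figure D3:**
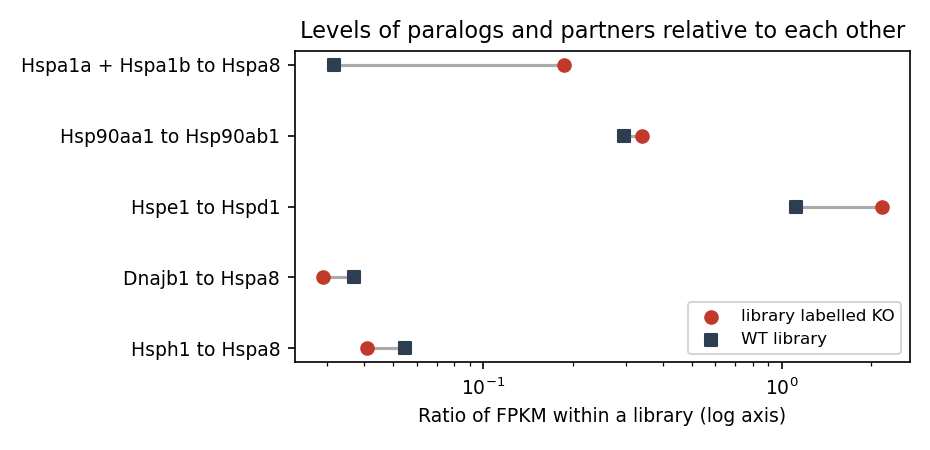
Ratio of FPKM between genes of the set within each library (log axis), for the KO-labelled library (circles) and WT (squares). The ratio of Hspa1a and Hspa1b to Hspa8 lies at 0.187 against 0.0317, that of Hspe1 to Hspd1 at 2.17 against 1.12, and the other 3 ratios lie closer together.

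The genes around the set were described from lists, whose choice was made with results of these data known. Counts past 2-fold in each list stand beside 6.98% higher and 3.88% lower over all expressed genes. The HSF factors come first. Hsf1, the main regulator of the heat-shock response, was at 29.8 FPKM in the KO-labelled library and 18.8 FPKM in WT, a ratio of 1.59 (1.45 to 1.74) and a log2 difference of 0.64. Hsf2 was at 3.28 and 2.96 FPKM, and the interval of its ratio (0.972 to 1.26) included 1. Hsf4, best known from the lens, was the 1 of 4 expressed members past 2-fold, at 8.90 against 2.76 FPKM. With a pseudocount of 5 FPKM 0 of these factors were higher, and with the trend on GC content and length removed also 0. In the other alternative settings 1 was. The RNA level of Hsf1 does not show its activity, which is set largely after translation.

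Other well-known HSF1 targets lay mostly near or below WT. Of 14 expressed targets outside the set 1 was above WT by 2-fold or more, 0 were below it, and 5 lay above 0, with a median log2 difference of -0.14. The higher one was Serpinh1, a collagen chaperone of the endoplasmic reticulum (ER), at 47.3 against 20.2 FPKM. It is also a gene of collagen-making stromal cells, which had higher marker levels in the KO-labelled library (sum 280 against 142 FPKM). The part of these cells in the level of Serpinh1 was not tested. Bag3, an exchange factor induced together with Hspa1a in many stress settings, was at 16.2 against 13.5 FPKM, and Dnaja1, another J-domain protein, at 35.6 against 49.6 FPKM. Bag3 and Dnaja1 were chosen after their values were seen. Hspa4l, a relative of Hsph1, was at 8.04 against 17.0 FPKM, a log2 difference of -0.99, and Cryab, a small heat-shock protein, at 7.83 against 3.50 FPKM. As plain ratios both passed 2-fold, Hspa4l 2.11-fold higher in WT and Cryab 2.24-fold higher in KO. With a pseudocount of 0.1 FPKM 2 of the 14 targets were higher and 1 lower. With the libraries scaled by the median ratio 1 was higher and 1 lower. With the trend on GC content and length removed 0 were higher and 0 lower.

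The wider HSP70 family lay lower. Of 11 expressed members outside the set 0 were above WT by 2-fold or more and 2 below it, with a median log2 difference of -0.66. These were Hspa13 (9.56 against 35.7 FPKM) and the ER exchange factor Hyou1 (79.1 against 219 FPKM), and the main ER HSP70, Hspa5, was at 361 against 695 FPKM. Hspa1l, a relative of Hspa1a that starts beside it and points the other way, had 1.11 FPKM in KO against 0.499 FPKM in WT on at least 39 and 23 reads, with a ratio of 2.23 (1.30 to 3.91). That ratio has no pseudocount, and with 1 FPKM added the log2 difference of Hspa1l was 0.49, within the limit. With a pseudocount of 0.1 FPKM 1 of the 11 family members was higher and 3 were lower. With the libraries scaled by the median ratio 0 were higher and 4 lower. Hspa1l was chosen after its values were seen. Among 11 cochaperones of HSP70 1 was higher, the ubiquitin ligase Stub1 (135 against 66.6 FPKM), and 1 lower, Bag4 (3.15 against 7.45 FPKM), with a median of 0.25. Stub1 overlaps Jmjd8 on the opposite strand. Among 17 J-domain proteins, listed as cytosolic though not all are, 1 was higher, Dnajc17 (17.8 against 5.51 FPKM), and 1 lower, Dnaja4 (21.7 against 44.8 FPKM). The median of this list was -0.44. Dnajc17 and Dnaja4 also overlap other genes. Dnajb1 was at -0.47 beside that median, and at -0.62 beside a median of -0.073 with the trend on GC content and length removed.

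None of the 16 cochaperones of HSP90 was past 2-fold in either direction, with a median of 0.090 and a range from -0.41 (Fkbp5, a steroid-receptor cochaperone) to 0.67 (Sgta). Among 7 expressed small heat-shock proteins outside the set, Hspb2 was the 1 gene past 2-fold, at 1.64 against 0.312 FPKM on at least 4 reads and 1 read, and the interval of its ratio (0.520 to 259) included 1. Hspb2 overlaps Cryab. Hspb6, a muscle-type member, was at 10.4 against 18.8 FPKM. The median of these relatives of Hspb1 was 0.29 and their highest log2 difference 1.01. In the cytosolic chaperonin TRiC and its helper prefoldin 2 of 15 were higher, both of prefoldin, Pfdn5 (292 against 140 FPKM) and Pfdn6 (79.3 against 36.8 FPKM), with a median of 0.045. With a pseudocount of 0.1 FPKM 3 were higher. With libraries scaled to a sum of 1000000, by the median ratio or to equal sums without the 20 highest genes, 0 were higher. With the trend on GC content and length removed 0 were higher too. Pfdn5 overlaps Myg1 on the same strand and Pfdn6 the opposite-strand CR974462.1. Among 16 other mitochondrial chaperones and proteases the protease Htra2 was higher (16.7 against 7.71 FPKM) and 0 were lower, and the mitochondrial HSP70, Hspa9, was at 50.8 against 87.0 FPKM. The median of this list was 0.22, with 10 of 16 genes above 0. Htra2 overlaps Aup1 and Loxl3 on the opposite strand.

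ER chaperones, which fold secreted proteins such as insulin, lay lower. Of 17 genes 5 were below WT by 2-fold or more and 0 above it, with a median of -0.68. Hspa5 and Hyou1, given above with the HSP70 family, are in this list too, so the lists are not independent. Dnajb9 was at 60.5 against 232 FPKM and Dnajc3 at 41.8 against 89.7 FPKM, both J-domain partners of Hspa5.

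**Figure D4:**
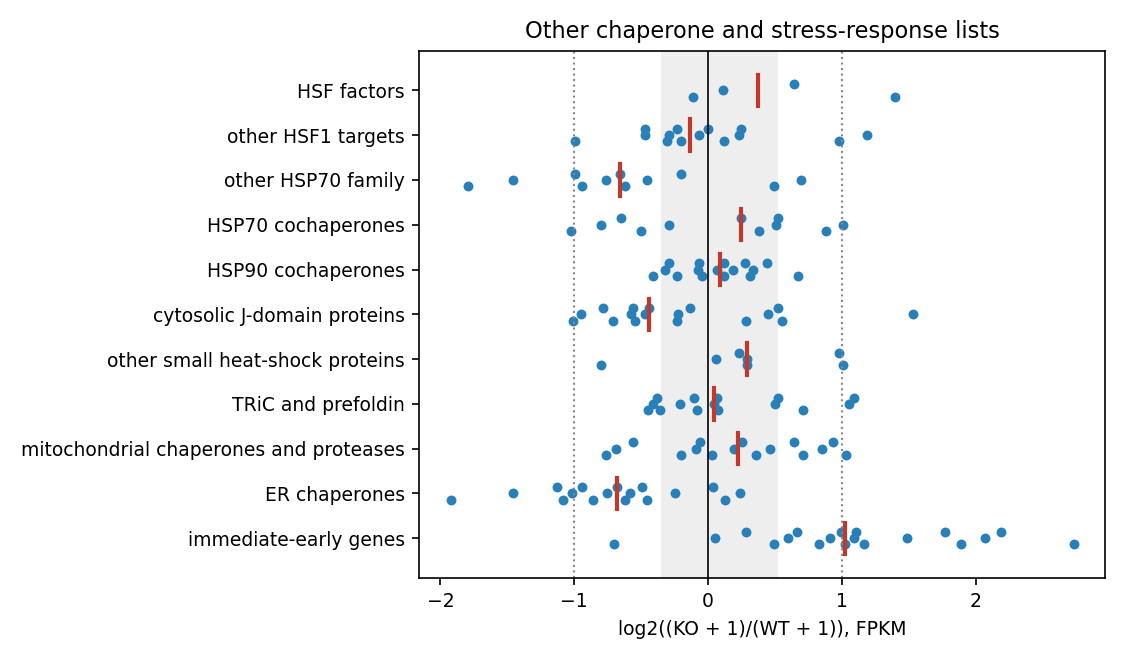
log2((KO + 1)/(WT + 1)) of each expressed gene (points) in the lists of chaperone and stress-response genes, with the list median as a red bar, dotted lines at a 2-fold difference and a grey band between the quartiles of all expressed genes. The immediate-early list lies to the right (median 1.02), the ER chaperones and the other HSP70 family to the left (-0.68 and -0.66), and the other HSF1 targets lie around 0. Hspa5 and Hyou1 are in both the ER and the HSP70 list.

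Immediate-early genes, which cells switch on within minutes of a stimulus or of handling, lay mostly above WT. Of 19 expressed members 10 were above WT by 2-fold or more and 0 below it, with a median log2 difference of 1.02. With a pseudocount of 5 FPKM 5 were above it (median 0.70), and with the trend on GC content and length removed also 5 (median 0.62). Their summed level was 379 FPKM in the KO-labelled library and 187 FPKM in WT, and no member was at 0. Btg2, chosen after its value was seen, was below WT, at a log2 difference of -0.70. Fos was at 42.7 against 5.59 FPKM, Ccn1 at 18.9 against 3.38, Egr1 at 17.0 against 3.27 and Jun at 51.4 against 13.2. These 4 were named for having the widest differences of the list, with log2 differences of 2.73, 2.18, 2.07 and 1.89. Those of Hspa1a, Hspa1b and Hspb1 were 2.31, 2.25 and 2.07, and the median of the immediate-early list was 1.02. The part of the immediate-early genes in the heat-shock result was not tested.

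Markers of other cells also differed between the libraries. All 12 endothelial markers had a log2 difference above 0 and 6 passed 2-fold. Their median was 1.00 and their sum 842 FPKM in KO and 367 in WT. All 10 stromal markers were above 0 and 3 passed 2-fold (median 0.84, sum 280 against 142 FPKM), and so were all 11 macrophage markers, of which 5 passed 2-fold (median 0.78, sum 325 against 139 FPKM). All 13 acinar markers above the floor were below WT by over 2-fold, and the 15 listed summed to 127 FPKM in KO and 2113 in WT. Ductal markers had 0 of 5 expressed genes past 2-fold (sum 214 against 188 FPKM). No marker of these lists was at 0 in either library. Whole-islet RNA does not show which cells the heat-shock transcripts came from, and a different number of cells cannot be told apart from a different level per cell. The part of these cells in the heat-shock result was not tested.

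The libraries also differed along GC content, which touches Hspa1a, Hspa1b and Hspb1. The median log2 difference was -0.27 in the 2475 expressed genes with the lowest GC content of the transcript (32.9% to 44.5%) and 0.45 in the 2475 with the highest (56.2% to 72.8%). Hspa1a (58.9%), Hspa1b (58.1%) and Hspb1 (61.7%) belong to the highest of these 5 bins, and Hsp90aa1 (43.7%) to the lowest. With the trend on GC content and transcript length removed, the log2 differences of Hspa1a and Hspa1b were 1.86 and 1.81 and that of Hspb1 was 1.15, all still at least 2-fold. Those of Hspe1 and Hsp90aa1 turned sign, to -0.17 and 0.055. Hspa8, Hsp90ab1, Dnajb1, Hsph1 and Hspd1 stayed below 0, between -0.62 and -0.28. With this trend removed 1 of the 117 listed genes (members and immediate-early genes aside) was at least 2-fold above WT, against 8 as deposited. Below WT by as much were 3 ER chaperones, against 5. The GC content of the transcripts was not tested as a source of the differences.

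**Figure D5:**
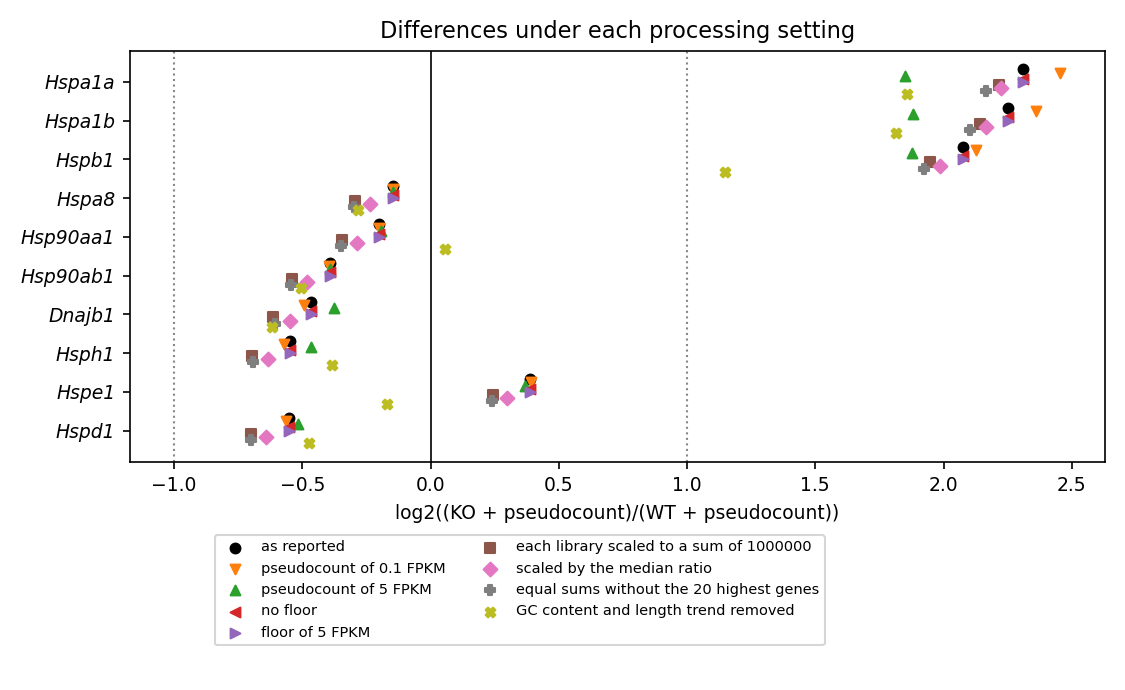
log2 difference of each gene between the KO-labelled library and WT under the reported setting (black circles) and 8 other settings, with dotted lines at a 2-fold difference. Hspa1a, Hspa1b and Hspb1 stay beyond the upper line in all 9 settings, and Hspe1 and Hsp90aa1 change sign when the GC and length trend is removed.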

How the data were processed

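RNA of mouse islets was measured in 2 libraries, 1 for each genotype. FPKM values of both stand in 1 table made by the authors. The build was GRCm38 (mm10), per the submitters' processing notes. The sources used here do not give the aligner, counting tool, annotation, strand setting or filters. A SMARTER kit was used for the libraries, per the labels' protocols.

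The FPKM values were used as deposited, with a pseudocount of 1 FPKM and a floor of 1 FPKM in either library. A gene at least 2-fold apart on the log2 scale was counted as higher or lower. FPKM are whole reads divided by a length and a library total. A scan for totals, then for lengths from 60 to 30000 bases, gave whole reads for 12406 of 12428 expressed genes (99.8%), within 1e-05 of a read plus 1e-09 times the reads. The smallest such reads gave exact Clopper-Pearson 95% intervals of the ratio. True reads can be a whole multiple, so intervals can be too wide. Intervals of changes in gene ratios use a normal approximation on the log scale from the same reads. The procedure was tested on simulated data. With 1 library per genotype and no deposited counts, no count test was used.

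The 50-base stretches and GC content were taken from each gene's longest coding transcript in GENCODE M21, on the transcript strand. A trend on GC content and log2 length was removed by lowess (fraction 0.3, 3 iterations) for 12374 expressed genes. Coordinates and promoters came from RefSeq on GRCm38.p6. Tools were Python 3.11.15, scipy 1.17.1 and statsmodels 0.14.6. The genes of the set and the lists were chosen with earlier results of these data known. Named genes were the 10 genes, Cgas, Hsf1 and Hsf2, and up to 4 genes of each list with the widest log2 difference, of which some are given. Bag3, Dnaja1, Hspa1l and Btg2 were chosen after their values were seen. With 2 libraries a likeness of patterns between genes is not defined. Alternatives were other pseudocounts, floors and scalings and the GC and length correction.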

Additional observations from a re-analysis of the deposited data

How the results depend on the processing

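Across 8 alternative settings, 3 of the 10 heat-shock genes (Hspa1a, Hspa1b and Hspb1) were at least 2-fold higher and 0 lower in each. The median log2 difference of the 10 genes, -0.17 as reported, was -0.32 with each library scaled to a sum of 1000000, -0.26 with the median ratio, -0.32 with equal sums without the 20 highest genes and -0.23 with the trend on GC content and length removed. These scalings shift the median of all genes by -0.12, -0.081, -0.14 and -0.090. Over all genes 868 were higher and 482 lower. These counts became 1556 higher with a pseudocount of 0.1 FPKM, 305 higher and 181 lower with 5 FPKM, 796 lower with sums of 1000000, 555 higher with equal sums without the 20 highest genes, and 401 higher with the trend removed. Higher genes were 64.3% of calls, but 46.5% with sums of 1000000, 52.0% with the median ratio, 43.7% with equal sums without the 20 highest genes and 52.2% with the trend removed. Of 117 distinct genes named in the chaperone lists outside the set, 8 were higher and 8 lower. Hspb3 and Cryaa were absent from the deposited genes and Hsf5 was below the floor, so these could not be counted. Over all expressed genes 6.98% were higher and 3.88% lower. With a pseudocount of 5 FPKM 4 were higher and 4 lower. The number higher was 4 with sums of 1000000, 3 with the median ratio, 3 with equal sums without the 20 highest genes and 1 with the trend removed. The cause of these changes was not tested. The ratio of Hspa1a and Hspa1b to Hspa8 changed 5.92-fold, and 6.15-fold and 5.74-fold for Hspa1a and Hspa1b alone. An alternative chosen after seeing the data took ratios from the differences with the trend removed. It gave 4.41 for Hspa1a to Hspa8, 4.27 for Hspa1b to Hspa8, 1.23 for Hspe1 to Hspd1, 1.47 for Hsp90aa1 to Hsp90ab1 and 0.933 for Hsph1 to Hspa8, against 6.15, 5.74, 1.94, 1.14 and 0.745. The heat-shock element was in 6 member genes in its 2-unit form and in 3 in its 3-unit form. No paired analysis was possible because each genotype has 1 library, and no library could be left out.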
